A study of Mus musculus with 24 samples.

Results

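Transcripts of 10 chemokine ligand genes, Ccl1, Ccl3, Ccl4, Ccl5, Ccl6, Ccl9, Ccl22, Xcl1, Cxcl9 and Cxcl10, were followed through 24 RNA-seq libraries of sorted mouse T cells. The genes were picked by name, 10 of the 35817 gene symbols in the tables, and all 10 passed the filter on low counts in every fit. The libraries came from Cat-Tg mice, which carry an N-terminally deleted human β-catenin transgene, and from WT mice, both on a C57BL/6 background and 8 to 12 weeks old. CD8 and CD4 T cells were sorted from spleen before transfer (pre-tx) or on day 7 (post-tx), as H-2Kb+ donor cells from the spleens of lethally irradiated BALB/c recipients that had also received WT T cell-depleted bone marrow. Each of the 8 groups (Cat-Tg or WT, CD8 or CD4, pre-tx or post-tx) held 3 libraries, from separate mice or recipients. The transgene was placed in the p1017 vector, several founder lines were made, and heterozygous mice were used. The human transgene could not be read from mouse transcripts, and Cat-Tg and WT libraries came as separate series by their labels, so genotype and library series cannot be told apart.

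Chemokines are small secreted proteins that steer leukocytes along a gradient through receptors on the responding cell. Ccl3, Ccl4 and Ccl5 are made by activated T cells, and Ccl3 and Ccl5 bind Ccr1. Ccl1 is the ligand of Ccr8, and Xcl1 draws Xcr1-bearing dendritic cells to activated CD8 T cells. Ccl6 and Ccl9 are rodent chemokines made mostly by myeloid cells. Cxcl9 and Cxcl10 are induced by interferon-γ in macrophages, dendritic cells and stroma and act on Cxcr3 of effector T cells. Ccl22, made by dendritic cells and macrophages, acts on Ccr4. In graft-versus-host disease such ligands recruit donor T cells and host or donor phagocytes to target tissue.

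Some libraries went against their labels. In all 6 WT pre-tx libraries, Cd8a made up 49.97% to 65.4% of the summed Cd8a and Cd4 CPM, whether labelled CD8 or CD4, whereas it made up at least 98.96% in the other CD8 libraries and at most 3.39% in the other CD4 libraries. These 6 also carried 5127 to 8717 CPM of 12 B cell markers, against 50.7 to 666 CPM elsewhere. They are called the libraries labelled WT pre-tx here, and every comparison with them is marked as resting on them. The 3 WT CD8 post-tx libraries were uneven, with 263, 1653 and 728 CPM of Cd3e in replicates 1, 2 and 3. Their 12 T cell markers summed to 9080, 19281 and 12871 CPM. The Y-linked gene Ddx3y stood at 31.3 to 101 CPM in the 6 Cat-Tg pre-tx libraries. In the other 18 it stood at no more than 0.516 CPM. The 4 Y-linked genes examined together summed to 126 to 255 CPM in those 6 and to 2.37 to 46.9 CPM in the other 18. In CD4 post-tx, 2 of the 4 were called lower in Cat-Tg than in WT. By these transcripts sex appeared to differ with group as well, although the paper states that mice were sex-matched. A marker sum is the summed CPM (counts scaled to TMM-adjusted library size) over a list. Depth was 11135713 to 50519825 estimated counts per library. By these totals, before TMM scaling, 3 counts, the limit that a count of 0 allows, were worth 0.0594 to 0.269 CPM. Such floors cover counting error only.

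The ligand genes sit close together. By GENCODE M21 (GRCm38), Ccl5, Ccl9, Ccl6, Ccl3 and Ccl4 lie within 138.9 kb on chromosome 11, with Ccl5 at chr11:83525778-83530518, Ccl6 at chr11:83587882-83593087 and Ccl3 at chr11:83647844-83649355, all on the minus strand, and Ccl4 at chr11:83662584-83664683 on the plus strand. Ccl1 lies before them on the same chromosome, at chr11:82176657-82305690 on the minus strand. Cxcl9 (chr5:92321347-92328079) and Cxcl10 (chr5:92346638-92348889) are 18.56 kb apart on the minus strand of chromosome 5. Xcl1 is at chr1:164931644-164935527 on the minus strand and Ccl22 at chr8:94745590-94751699 on the plus strand. All 10 are annotated as protein coding. Ccl6 and Ccl3 are 54.76 kb apart, yet they fell on opposite sides of the comparison of Cat-Tg with WT CD4 post-tx cells described below.

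Promoters of 250 bases before to 50 bases after the start (RefSeq, GRCm38.p6) were at hand for 8 of the 10 genes. Those of 4 genes are shown, 5′ to 3′ on the gene's strand. Ccl3 and Xcl1 were lower in Cat-Tg than in WT CD4 post-tx cells, and Ccl6 and Cxcl10 had their highest mean levels in Cat-Tg CD4 post-tx. Capitals mark matches, on either strand, to GAS (TTCNNNGAA), AP-1 (TGANTCA), TCF/LEF (CTTTGAT) and NFAT (GGAAA) letters. The intervals are chr11:83649329-83649628 for Ccl3, chr1:164935473-164935772 for Xcl1, chr11:83593038-83593337 for Ccl6 and chr5:92348840-92349139 for Cxcl10, all on the minus strand.
Ccl3: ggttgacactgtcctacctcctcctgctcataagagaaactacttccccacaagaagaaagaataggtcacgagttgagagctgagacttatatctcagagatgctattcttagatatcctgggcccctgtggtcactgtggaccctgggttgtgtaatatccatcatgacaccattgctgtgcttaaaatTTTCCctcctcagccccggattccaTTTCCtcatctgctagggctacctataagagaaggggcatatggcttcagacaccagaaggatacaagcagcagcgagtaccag
Xcl1: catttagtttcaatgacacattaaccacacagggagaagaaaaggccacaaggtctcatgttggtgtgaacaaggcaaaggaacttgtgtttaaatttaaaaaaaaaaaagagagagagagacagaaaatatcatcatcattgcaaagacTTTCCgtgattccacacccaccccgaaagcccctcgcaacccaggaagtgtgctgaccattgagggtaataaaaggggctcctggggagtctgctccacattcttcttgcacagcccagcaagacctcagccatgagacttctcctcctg
Ccl6: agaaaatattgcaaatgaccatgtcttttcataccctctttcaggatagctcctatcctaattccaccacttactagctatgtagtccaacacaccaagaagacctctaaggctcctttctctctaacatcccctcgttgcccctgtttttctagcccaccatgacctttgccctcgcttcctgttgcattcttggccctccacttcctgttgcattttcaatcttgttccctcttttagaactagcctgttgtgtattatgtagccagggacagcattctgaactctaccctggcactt
Cxcl10: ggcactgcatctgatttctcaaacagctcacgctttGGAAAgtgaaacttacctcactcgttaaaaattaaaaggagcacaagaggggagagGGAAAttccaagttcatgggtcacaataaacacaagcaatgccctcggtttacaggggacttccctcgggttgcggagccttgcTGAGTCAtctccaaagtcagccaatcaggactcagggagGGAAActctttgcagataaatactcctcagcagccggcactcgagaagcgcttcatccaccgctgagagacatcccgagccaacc
Cxcl10 held 1 AP-1 match, from -74 to -68 of the start, and 3 NFAT matches, at -214, -158 and -35. None of them overlapped another of the 4 motifs, and other motifs were not searched. AP-1 letters stood in 7.81% of all 32851 promoters of that length and NFAT letters in 61.3%. The capitals in Ccl3 (-59 and -34) and in Xcl1 (-100) are NFAT letters on the opposite strand. Ccl6 held none of the 4 motifs in this window. Among the 4 promoters not printed, those of Ccl9 and Cxcl9 held AP-1 and NFAT letters, that of Ccl1 NFAT letters, and that of Ccl22 none of the 4. None of the 8 held the TCF/LEF or GAS letters, which stood in 3.73% and 8.3% of all promoters. A match describes letters and is not evidence of binding.

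Ccl5, encoding the chemokine known as RANTES, dominated the ligand transcripts of all groups but the CD4 post-tx ones, which held a mixture. On the TPM scale, which corrects for transcript length and lets genes be compared, Ccl5 made up 94.3% ± 0.319 (SD, n = 3) of the 10 ligands' TPM in Cat-Tg CD8 post-tx and 78.5% ± 5.63 in WT CD8 post-tx. Before transfer its mean share was 95.5% in Cat-Tg CD8 and 76.6% in Cat-Tg CD4. In the libraries labelled WT pre-tx it was 86.4% for CD8 and 91.4% for CD4. In WT CD4 post-tx the share of Ccl5 was 38.2% ± 2.48, followed by Ccl1 with 27.2% ± 5.4 and Ccl4 with 20.6% ± 1.00. In Cat-Tg CD4 post-tx, Ccl6 held the largest mean share, 41.1% ± 8.12, against 5.35% ± 2.30 in WT CD4 post-tx, with Ccl5 at 37.7% ± 4.03 and Ccl1 at 10.7% ± 3.25. In replicate 1 of that Cat-Tg group, however, Ccl5 was at 687 TPM and Ccl6 at 525 TPM. The Ccl6 TPM also includes a retained-intron transcript of 776 bases, beside the coding one of 1440 bases. It took 48.8% ± 14.2 of the Ccl6 counts there, so the share of the coding transcript alone was smaller. The summed TPM of the 10 ligands was 4201, 2819 and 3756 in the 3 WT CD4 post-tx libraries and 1630.4, 1893 and 1462 in the 3 Cat-Tg ones, so that the groups did not overlap. In CD8 post-tx they did, with 1961, 5242 and 4605 TPM in WT and 4410, 5029 and 4293 TPM in Cat-Tg. Shares of one total are not independent of each other.

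**Figure D1:**
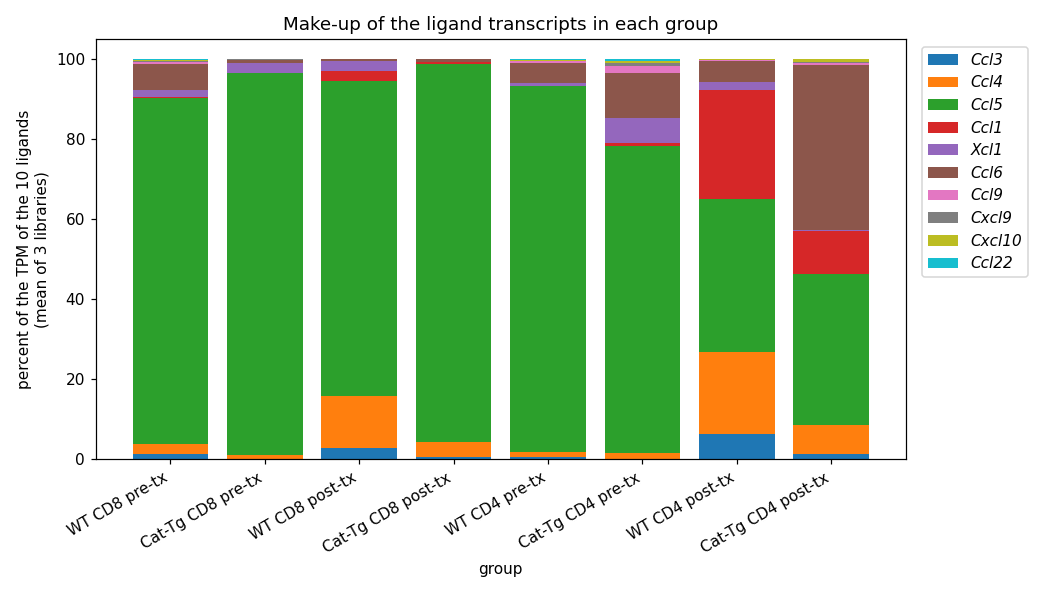
Stacked bars give the mean percent (3 libraries a group) of the summed TPM of the 10 ligands taken by each gene, for the 8 groups on the x axis. Ccl5 fills 94.3% of the Cat-Tg CD8 post-tx bar, and Ccl6 takes 41.1% of the Cat-Tg CD4 post-tx bar against 5.35% in WT CD4 post-tx. The Ccl6 share includes its retained-intron transcript.

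The question of the genotype comparison was which ligands donor T cells with the transgene held more or less of on day 7. In CD4 post-tx cells, Ccl1, Ccl3, Ccl4 and Xcl1 were lower in Cat-Tg and Ccl6 was higher, and in CD8 post-tx cells Xcl1 was lower. A gene was called where edgeR's quasi-likelihood test gave a Benjamini-Hochberg adjusted p of at most 0.05 over all genes and the absolute log2 fold change was at least 1. In CD4 post-tx 4 of 10 ligands were called lower, against a background of 6.4% of all genes, and 1 higher, against 3.62%. In CD8 post-tx 1 of 10 was called lower (background 0.57%) and none higher (background 1.1%). There 4 of 10 ligands (Ccl1, Ccl3, Ccl4 and Xcl1) had an unadjusted p under 0.05, as did 3044 of all 15960 genes. The median log2 fold change of the 10 was -0.36 in CD4 post-tx and -1.78 in CD8 post-tx, beside medians over all genes of -0.19 and -0.18.

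**Figure D2:**
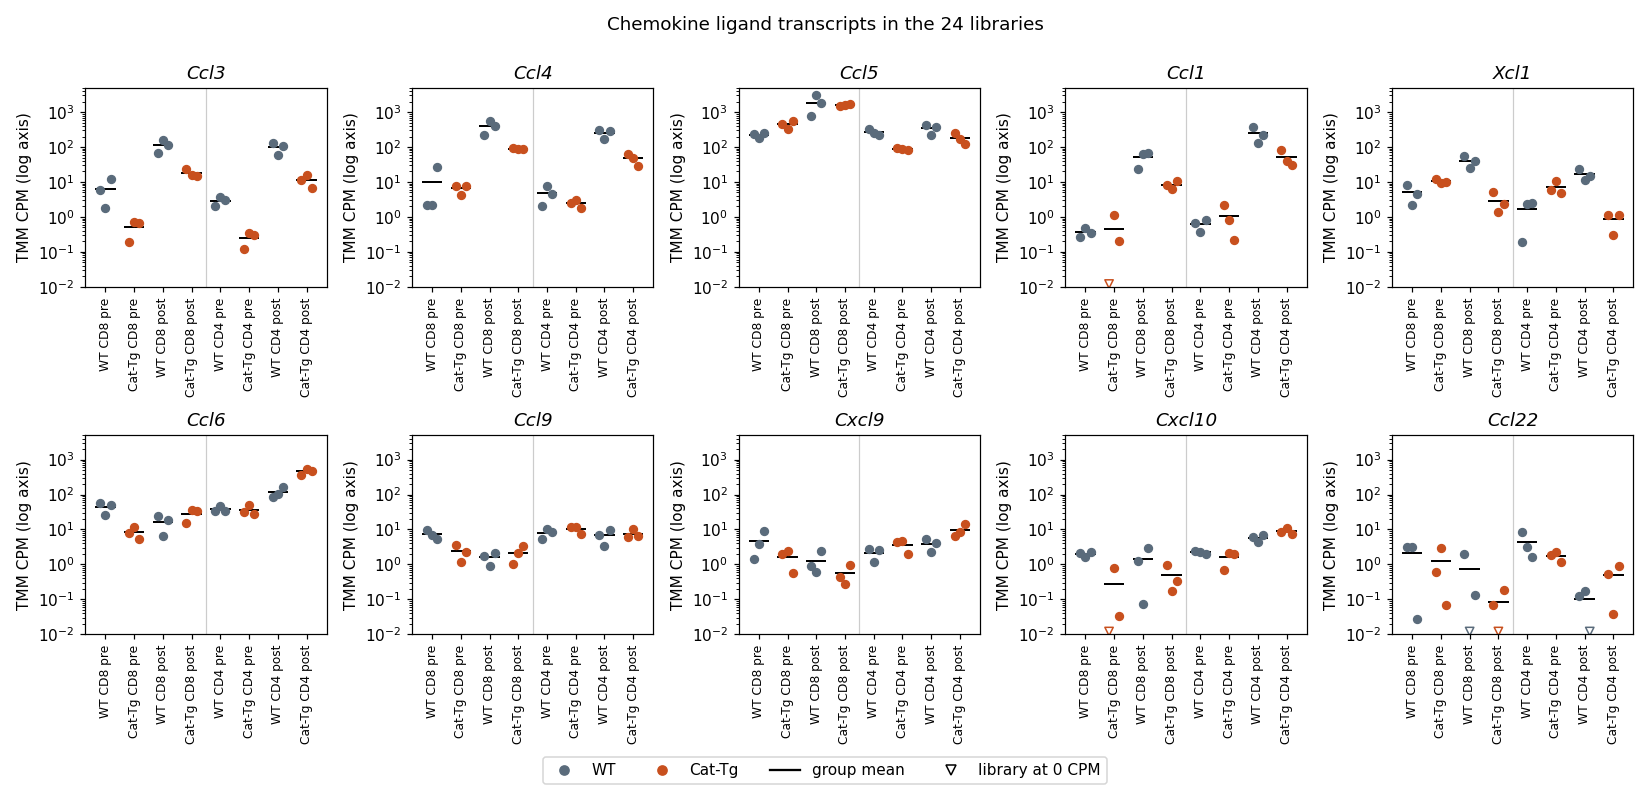
Each panel gives 1 ligand, with TMM-scaled CPM on a log y axis and the 8 groups on the x axis. Points are libraries, horizontal bars are group means, and open triangles at the foot mark libraries at 0 CPM. Ccl3 and Ccl4 sit highest in the WT post-tx groups, Ccl6 in Cat-Tg CD4 post-tx.

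Ccl3 and Ccl4, the macrophage inflammatory proteins, were both lower in Cat-Tg CD4 post-tx. Ccl3 stood at 134, 60.5 and 108 CPM in the WT CD4 post-tx libraries and at 11.7, 15.9 and 6.64 CPM in the Cat-Tg ones. Every WT library was above every Cat-Tg library, and the fitted difference was 8.75-fold (log2 fold change -3.13, SE 0.42, adjusted p = 0.000489). Ccl4 stood at 315, 169.5 and 286 CPM in WT and at 64.0, 49.97 and 29.4 CPM in Cat-Tg, again without overlap, a 5.28-fold difference (log2 fold change -2.40, SE 0.40, adjusted p = 0.0022). In CD8 post-tx cells, Ccl3 stood at 66.7, 159.8 and 115 CPM in WT and 23.4, 16.1 and 14.8 CPM in Cat-Tg, also without overlap, but its log2 fold change of -2.58 (SE 0.64) had an adjusted p of 0.0541. For Ccl4 in CD8 post-tx, the WT libraries held 228, 561 and 394 CPM and the Cat-Tg ones 91.9, 85.9 and 86.5 CPM (log2 fold change -2.09, SE 0.73, adjusted p = 0.153). In CD8 post-tx both genes thus had WT libraries above all Cat-Tg libraries without passing the test. Fitted without the libraries labelled WT pre-tx, which share the estimate of spread, both passed it, with adjusted p-values of 0.0453 for Ccl3 and 0.04 for Ccl4, and 3 of 10 ligands were called instead of 1. Without WT CD8 post-tx replicate 1, Ccl3 also passed it (adjusted p = 0.0454), and 2 of 10 were called. In CD4 post-tx the same fit called 5 of 10, as before.

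Xcl1, the ligand that attracts cross-presenting dendritic cells, showed the largest genotype difference in post-tx cells. It stood at 56.6, 25.4 and 40.5 CPM in WT CD8 post-tx and at 5.06, 1.41 and 2.35 CPM in Cat-Tg CD8 post-tx, a 13.6-fold difference (log2 fold change -3.77, SE 0.68, adjusted p = 0.0169). With only the 6 compared libraries in the fit the adjusted p was 0.0616, and without Cat-Tg CD8 post-tx replicate 1 or 2 it was 0.0563 or 0.125. In CD4 post-tx it stood at 23.2, 11.6 and 15.3 CPM in WT and at 1.15, 0.312 and 1.15 CPM in Cat-Tg, a 19.4-fold difference (log2 fold change -4.27, SE 0.81, adjusted p = 0.00426). In both cell types the lowest WT library was above the highest Cat-Tg one. Cat-Tg was not low in Xcl1 before transfer, with 12.5, 9.11 and 9.93 CPM in CD8 and 5.99, 10.6 and 4.92 CPM in CD4 libraries.

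Ccl1, a ligand of activated T cells for Ccr8, had its highest mean level in WT CD4 post-tx. It stood at 386, 131 and 225 CPM in WT CD4 post-tx and at 81.3, 38.9 and 30.7 CPM in Cat-Tg CD4 post-tx, a 4.75-fold difference (log2 fold change -2.25, SE 0.55, adjusted p = 0.0171) without overlap. That call was lost without WT CD4 post-tx replicate 1, without Cat-Tg CD4 post-tx replicate 2 or 3, and with no filter on low counts, where the adjusted p was 0.13. In CD8 post-tx, WT held 24, 61.5 and 69.7 CPM and Cat-Tg 8.04, 6.35 and 10.4 CPM (log2 fold change -2.60, SE 0.87, adjusted p = 0.134). The shortest of its 3 transcripts, which is coding, took 90.01% of the Ccl1 counts.

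Ccl5 was not called between genotypes in post-tx cells. In CD8 post-tx it stood at 779.8, 3010.1 and 1776 CPM in WT, whose replicates were uneven in Cd3e in the same order, and at 1543, 1576 and 1654 CPM in Cat-Tg. The groups overlapped, and the log2 fold change was -0.15 (SE 0.38, adjusted p = 0.871). In CD4 post-tx the WT libraries held 419, 218 and 387 CPM and the Cat-Tg ones 246, 166 and 125 CPM (log2 fold change -0.90, SE 0.30, adjusted p = 0.0653). Without Cat-Tg CD4 post-tx replicate 1, the shallowest library, the log2 fold change was -1.27 and it passed the test (adjusted p = 0.0127), as it did with limma-voom (-1.03, adjusted p = 0.0243) and with length-scaled TPM (-1.03, adjusted p = 0.0144).

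Markers moved with these differences to unequal degrees. None of 12 T cell markers was called between Cat-Tg and WT in CD8 or CD4 post-tx, and their sums ranged over 5481 to 6423 CPM in Cat-Tg and 6179 to 9733 CPM in WT CD4 post-tx. Of 10 T effector genes (such as Ifng, Prf1 and Gzmb), 2 were called lower in Cat-Tg CD4 post-tx, Ifng (log2 fold change -1.73, adjusted p = 0.0112) and Prf1 (-1.11, adjusted p = 0.012), and none in CD8 post-tx. Of 16 monocyte and macrophage markers, 12 were called higher in Cat-Tg CD4 post-tx and none lower, with sums of 6941 to 8367 CPM against 1209 to 1893 CPM in WT, and none of the 16 was at 0 in any group. All 8 red cell precursor markers were also higher there, with sums of 4295 to 24814 CPM against 689 to 1176 CPM. The part of these cell types in the lower ligand levels of Cat-Tg CD4 cells was not tested. In CD8 post-tx libraries, where Xcl1 was lower too, the 16 myeloid markers summed to 316 to 631 CPM in Cat-Tg and 137 to 393 CPM in WT. The red cell precursor markers summed to 3031 to 5228 CPM in Cat-Tg and 271 to 2477 CPM in WT there, and 8 neutrophil markers to 252 to 746 CPM and 61.6 to 129 CPM, and the part of neither was tested. In such bulk libraries, fewer cells of a type and less RNA per cell cannot be told apart.

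Whether the genotype difference itself differed between CD8 and CD4 post-tx was tested in a fit of all 24 libraries. None of the 10 ligands was called (background 0.629%), nor by DESeq2 or limma-voom. By edgeR 3 of 10 had an unadjusted p under 0.05, as did 2405 of all 19076 genes. The 3 were Ccl22 (difference between the log2 fold changes -5.55, SE 2.32, adjusted p = 0.306), Cxcl9 (-2.71, SE 1.09, adjusted p = 0.283) and Ccl6 (-1.29, SE 0.62, adjusted p = 0.388). For Ccl3 it was 0.42 (SE 0.73), for Ccl4 0.19 (SE 0.86), for Ccl1 -0.48 (SE 0.97) and for Xcl1 0.34 (SE 0.96). With SEs of this size these data do not show that the cell types respond alike or unlike.

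**Figure D3:**
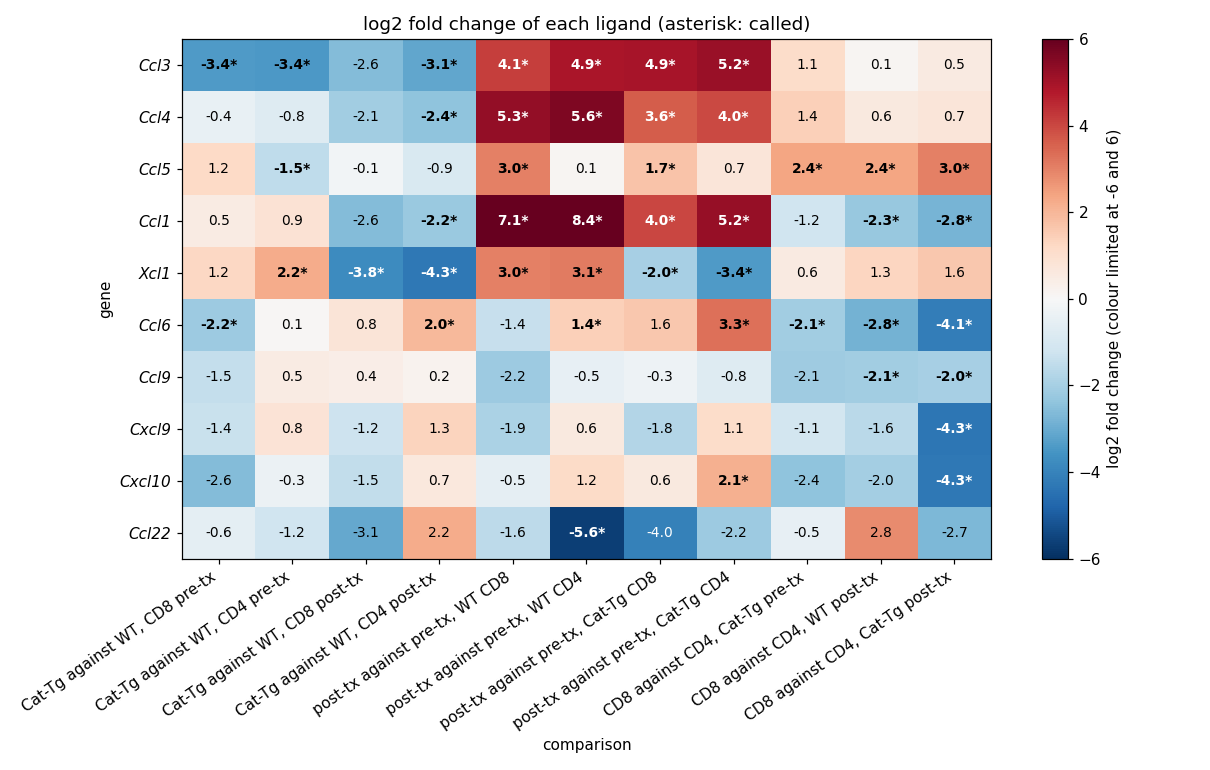
Rows are the 10 ligands and columns 11 comparisons, and each cell gives the log2 fold change, coloured from -6 to 6, with an asterisk where the gene was called. Ccl3, Ccl4, Ccl1 and Xcl1 are blue in both post-tx genotype columns, and Ccl6 is red in CD4 post-tx (1.96).

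Transfer into the irradiated recipient went with a large rise of Ccl1, Ccl3 and Ccl4. In Cat-Tg cells of both types, the pre-tx libraries held Ddx3y and the post-tx ones almost none. Transfer cannot be told apart from that difference there. In Cat-Tg CD8 cells, whose pre-tx libraries held the Cd8a of their label, 4 of 10 ligands were called higher post-tx (background 8.72%) and 1 lower (background 5.23%). Those pre-tx libraries also held 320 to 2744 CPM of 8 neutrophil markers and 1671 to 11585 CPM of 8 red cell precursor markers. Both were lowest in replicate 3. Post-tx, 10 of 12 B cell and 3 of 8 neutrophil markers were called lower, and of 16 myeloid markers 5 higher and 2 lower. Their part in the ligand changes was not tested. Ccl3 rose from 0.188, 0.698 and 0.685 CPM, which were 4 to 20 counts, to the 14.8 to 23.4 CPM given above (log2 fold change 4.95, SE 0.73, adjusted p = 0.000564). Ccl4 rose from 7.65, 4.30 and 7.77 CPM (log2 fold change 3.61, SE 0.78, adjusted p = 0.00761), and Ccl1 from 0, 1.12 and 0.205 CPM (log2 fold change 4, SE 0.95, adjusted p = 0.0124). Ccl5 rose from a higher base of 462, 337 and 547 CPM (log2 fold change 1.69, SE 0.40, adjusted p = 0.0115). The Ccl1 call was lost without Cat-Tg CD8 pre-tx replicate 3 (adjusted p = 0.0646) and that of Ccl5 without Cat-Tg CD8 pre-tx replicate 2 (0.0542). Ccl5 was thus abundant in Cat-Tg CD8 cells already before transfer, at 1240 TPM, when Ccl3 was at 0.814 TPM.

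In Cat-Tg CD4 cells 5 of 10 ligands were called higher post-tx (background 13.2%) and 1 lower (background 27.7%). Ccl3 rose from 0.119, 0.337 and 0.313 CPM (log2 fold change 5.19, SE 0.51, adjusted p = 5.48e-06) and Ccl4 from 2.52, 3.03 and 1.83 CPM (log2 fold change 3.96, SE 0.44, adjusted p = 1.42e-05). Ccl1 rose from 2.14, 0.8 and 0.224 CPM (log2 fold change 5.24, SE 0.65, adjusted p = 3.2e-05). Ccl5 went from 91.1, 85.2 and 84.5 CPM to 246, 166 and 125 CPM, with no overlap but an adjusted p of 0.0525 (log2 fold change 0.74, SE 0.30). The other rises, of Ccl6 and Cxcl10, are described with the myeloid ligands.

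Xcl1 went the other way in Cat-Tg cells. From the pre-tx levels given above it fell in CD4 (log2 fold change -3.41, SE 0.79, adjusted p = 0.00319) and in CD8 (log2 fold change -1.98, SE 0.63, adjusted p = 0.0491), with no overlap between pre-tx and post-tx libraries in either. The CD8 call was lost without any 1 of the 3 Cat-Tg CD8 pre-tx libraries, or post-tx replicate 2 or 3 (highest adjusted p 0.183). In WT it was higher post-tx than in the libraries labelled WT pre-tx, with log2 fold changes of 3.03 in CD8 (SE 0.66, adjusted p = 0.00354) and 3.11 in CD4 (SE 0.76, adjusted p = 0.00773). The WT values rest on those libraries.

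All other comparisons with the libraries labelled WT pre-tx carry the same limit. Against them, 5 of 10 ligands were called higher in WT CD8 post-tx (background 13.1%) and none lower (background 10.4%), with log2 fold changes of 7.09 for Ccl1, 5.26 for Ccl4, 4.14 for Ccl3 and 3.02 for Ccl5 beside Xcl1. In WT CD4 post-tx, 5 were called higher (background 13.1%) and 1 lower (background 9.02%), with 8.37 for Ccl1, 5.59 for Ccl4, 4.89 for Ccl3 and 1.44 for Ccl6, and -5.64 for Ccl22. The T effector list rose in all 4 comparisons of post-tx with pre-tx, by 10 of 10 genes in Cat-Tg CD8, 9 in WT CD8 and 8 each in Cat-Tg and WT CD4. Between Cat-Tg and the libraries labelled WT in pre-tx cells, Ccl3 was lower in Cat-Tg CD8 (log2 fold change -3.39, adjusted p = 0.0062) and CD4 (-3.43, adjusted p = 0.000243), Ccl6 was lower in CD8 (-2.18, adjusted p = 0.0326), Ccl5 was lower in CD4 (-1.53, adjusted p = 0.00206) and Xcl1 was higher in CD4 (2.24, adjusted p = 0.0423). That is 2 of 10 called lower in CD8 (background 4.47%) and none higher (background 4.49%), and 2 lower (background 5.91%) and 1 higher (background 12.3%) in CD4. Between pre-tx and post-tx the genotype difference itself differed for 2 of 10 ligands in CD8 (background 10.7% of all genes) and 4 of 10 in CD4 (background 21.2%), with the values given in the closing section. The Xcl1 call in CD4 pre-tx was lost without any 1 of its 6 libraries (highest adjusted p 0.16), and the Ccl6 call in CD8 pre-tx without Cat-Tg or WT replicate 1 or 3 (up to 0.132). In the pre-tx comparisons all 12 B cell markers were lower in Cat-Tg. In CD8 pre-tx, where Ccl6 was lower, 10 of 16 myeloid markers and 4 of 8 dendritic markers were lower in Cat-Tg too, and in CD4 pre-tx 2 of 16 and 3 of 8, with 6 of 8 red cell precursor markers. Ddx3y was higher in Cat-Tg pre-tx libraries as well, and the part of none of these in the ligand differences was tested.

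Ccl6, a myeloid chemokine of rodents, was the 1 ligand called higher in Cat-Tg CD4 post-tx. It stood at 374, 533 and 472 CPM in Cat-Tg CD4 post-tx and at 86.1, 101 and 164 CPM in WT CD4 post-tx, a 3.88-fold difference (log2 fold change 1.96, SE 0.29, adjusted p = 0.00104). Every other library held 5.48 to 56.5 CPM, so that Cat-Tg CD4 post-tx was highest and WT CD4 post-tx was next, without overlap. It was also above the Cat-Tg CD4 pre-tx libraries, at 31.9, 49.5 and 28.4 CPM (log2 fold change 3.31, SE 0.31, adjusted p = 4e-06). In CD8 post-tx cells the WT libraries held 24.7, 6.57 and 18.8 CPM and the Cat-Tg ones 15.2, 35.9 and 34.5 CPM, which overlapped (log2 fold change 0.79, SE 0.58, adjusted p = 0.468). A retained-intron transcript took 42.31% of the Ccl6 counts, with group means of 35.4% to 48.8%. As given above, 12 of 16 myeloid markers were higher in Cat-Tg CD4 post-tx. Csf1r, the receptor that sustains macrophages, stood there at 1203, 1733 and 1409 CPM against 142, 141 and 236 CPM in WT, and C1qa, a complement gene of tissue macrophages, at 1262, 931 and 834 CPM against 99.2, 140.2 and 234 CPM. The part of myeloid cells in the Ccl6 difference was not tested.

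Cxcl9 and Cxcl10, the interferon-γ-induced ligands of Cxcr3, were low everywhere and highest on average in Cat-Tg CD4 post-tx. Cxcl10 stood there at 8.19, 11.3 and 7.58 CPM, against 5.97, 4.35 and 6.84 CPM in WT CD4 post-tx (log2 fold change 0.65, SE 0.53, adjusted p = 0.51). Cxcl9 stood at 6.34, 8.70 and 14.3 CPM against 5.27, 2.32 and 4.18 CPM (log2 fold change 1.32, SE 0.58, adjusted p = 0.171). Neither genotype difference passed the test, although the libraries did not overlap. Cxcl10 rose from pre-tx to post-tx in Cat-Tg CD4 (0.712, 2.11 and 2.01 CPM before, log2 fold change 2.15, SE 0.56, adjusted p = 0.00651), while Cxcl9 did not pass the test there (1.09, SE 0.58, adjusted p = 0.137). Of 8 interferon-γ-responsive genes, 6 were called higher post-tx in Cat-Tg CD4, and none between Cat-Tg and WT in CD4 or CD8 post-tx. In the same transfer comparison of Cat-Tg CD4, 11 of 16 myeloid markers were called higher and 2 lower, with sums of 1450.1 to 2263 CPM before and 6941 to 8367 CPM after, and 7 of 8 red cell precursor markers were higher. Their part in the rises of Cxcl10 and Ccl6 was not tested.

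Ccl9 and Ccl22 were not called in any comparison of Cat-Tg with WT. Ccl9 ranged from 0.885 to 12.1 CPM over all 24 libraries and was called in no genotype or transfer comparison. Ccl22 ranged from 0 to 8.29 CPM, was at 0 in 3 libraries, and had its highest mean in those labelled WT CD4 pre-tx, at 8.29, 3.19 and 1.67 CPM. Its SEs on the log2 scale reached 1.92 in the genotype comparisons, so that differences were hardly detectable at this depth.

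CD8 and CD4 cells of the same group differed in Ccl5, in some of the myeloid ligands and, post-tx, in Ccl1. In Cat-Tg post-tx cells, 1 of 10 ligands was called higher in CD8 (background 1.34%) and 5 lower (background 4.5%). Ccl5 was 8.06-fold higher in CD8 (log2 fold change 3.01, SE 0.38, adjusted p = 1.03e-05). Lower in CD8 were Ccl6, 17.6-fold (log2 fold change -4.13, SE 0.49, adjusted p = 6.23e-06), Cxcl9, 20.1-fold (-4.33, SE 0.86, adjusted p = 0.0021), Cxcl10, 19.8-fold (-4.31, SE 1.14, adjusted p = 0.0218), Ccl1, 6.85-fold (-2.78, SE 0.73, adjusted p = 0.0211), and Ccl9, 4.01-fold (-2, SE 0.60, adjusted p = 0.0451). In WT post-tx, 1 was higher in CD8 (background 5.71%) and 3 lower (background 7.09%), with Ccl5 5.19-fold higher, Ccl6 7.16-fold, Ccl1 4.89-fold and Ccl9 4.30-fold lower. Ccl3 and Ccl4 were not called between CD8 and CD4 in any group, with log2 fold changes of 0.12 (SE 0.52) and 0.56 (SE 0.61) in WT post-tx. In Cat-Tg pre-tx, Ccl5 was higher (5.22-fold, adjusted p = 0.00038, background 0.367%) and Ccl6 lower (4.26-fold, adjusted p = 0.0127, background 1.16%) in CD8. Several of these calls hung on 1 library or setting. CD8 and CD4 cells were sorted from each mouse, so these groups share animals, but the sources do not say that replicate numbers mark the mouse. When replicate number entered the fit as a block, the calls of Ccl9 in Cat-Tg post-tx (adjusted p = 0.0645) and Ccl1 in WT post-tx (adjusted p = 0.0571) were lost. The Ccl9 call in Cat-Tg post-tx was lost without any 1 of its 6 libraries (highest adjusted p over all alternatives 0.178), and that in WT post-tx without CD8 replicate 2 or CD4 replicate 3 (up to 0.154). The Ccl1 call was lost without any 1 CD8 library or CD4 replicate 1 in Cat-Tg (up to 0.121), and in WT also without CD4 replicate 3 (up to 0.138). The Cxcl10 call was lost without Cat-Tg CD8 replicate 2 or 3 or CD4 replicate 2 (up to 0.103), and the Ccl6 call in Cat-Tg pre-tx without CD8 replicate 1 or 3 or CD4 replicate 2 (up to 0.0997). Of 16 myeloid markers, 14 were lower in CD8 than in CD4 in Cat-Tg post-tx, 12 in WT post-tx and 9 in Cat-Tg pre-tx, and their part in the lower Ccl6, Ccl9, Cxcl9 and Cxcl10 was not tested.

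Across the 8 groups the ligands fell apart into those that went with T effector genes and those that went with myeloid markers. As a description over the 8 group means, Pearson's r with the T effector list was 0.938 for Ccl4, 0.852 for Ccl3, 0.803 for Ccl1 and 0.770 for Ccl5, and lay between -0.201 and 0.172 with the myeloid list for the first 3, and at -0.713 for Ccl5. For Cxcl10, Ccl6, Ccl9 and Cxcl9 the r with the myeloid list was 0.919, 0.887, 0.882 and 0.830, and with the T effector list 0.028, 0.139, -0.611 and -0.383. Xcl1 followed neither list upward, with 0.223 and -0.631. Ccl22 had an r of -0.868 with the T effector list and 0.269 with the myeloid list, and its largest were 0.865 with the B cell and 0.802 with the dendritic list. Without the libraries labelled WT pre-tx, over 6 groups, r with the T effector list was 0.736 to 0.917 for Ccl1, Ccl3, Ccl4 and Ccl5, and r with the myeloid list 0.857 to 0.951 for Ccl6, Ccl9, Cxcl9 and Cxcl10. The points share library composition and 1 scaling per library. Within groups, over 24 libraries, Ccl1, Ccl3, Ccl4 and Ccl5 had r between -0.324 and 0.386 with the T effector list. With the myeloid list, Ccl6, Ccl9, Cxcl9 and Cxcl10 had 0.373, 0.363, 0.181 and -0.095 within groups, below the 0.519, 0.389, 0.208 and 0.068 they had with the T effector list. The split was thus a description of the group means.

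**Figure D4:**
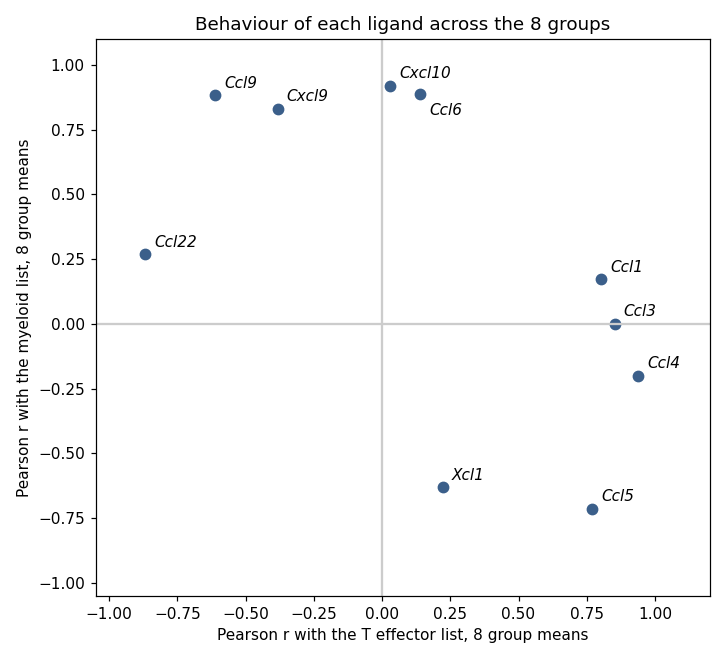
Each point is 1 ligand, placed by Pearson's r of its 8 group means with those of the T effector list (x axis) and of the myeloid list (y axis). Ccl4, Ccl3, Ccl1 and Ccl5 lie to the right, from 0.770 to 0.938, and Cxcl10, Ccl6, Ccl9 and Cxcl9 at the top, from 0.830 to 0.919.

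Over the 24 libraries, the r between Ccl3 and Ccl4 was 0.906, between Ccl1 and Ccl4 0.853 and between Ccl6 and Cxcl10 0.834, while between Ccl5 and Ccl9 it was -0.790. Not every pair kept to these sides: Ccl1 had an r of 0.486 with Ccl6 and 0.456 with Cxcl10, above its 0.315 with Ccl5. The protein-coding genes most like each ligand over the 24 libraries, of 10096 examined, were of different kinds. Those of Ccl5 were led by Prf1, the pore-forming protein of cytotoxic granules (r = 0.945). Those of Ccl1 were Fkbp5 (0.907), Csf2, the cytokine GM-CSF (0.902), and Il1rl1, the receptor of interleukin-33 (0.900). Those of Ccl3 were Pimreg (0.910), Arf6 (0.910) and the mitotic kinase gene Aurka (0.907), and those of Ccl4 included the histone chaperone gene Asf1b (0.925). Those of Ccl6 included Gfra2 (0.949) and the Fc receptor gene Fcgr4 (0.941), and those of Ccl9 included Tyrobp, a signalling adaptor of myeloid cells (0.862). Cxcl10 was most like Treml4 (0.881) and Cxcl9 like Slc16a10 (0.864). The closest genes to Xcl1 (Rbks, 0.754) and Ccl22 (Gm4841, 0.773) had lower values.

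**Figure D5:**
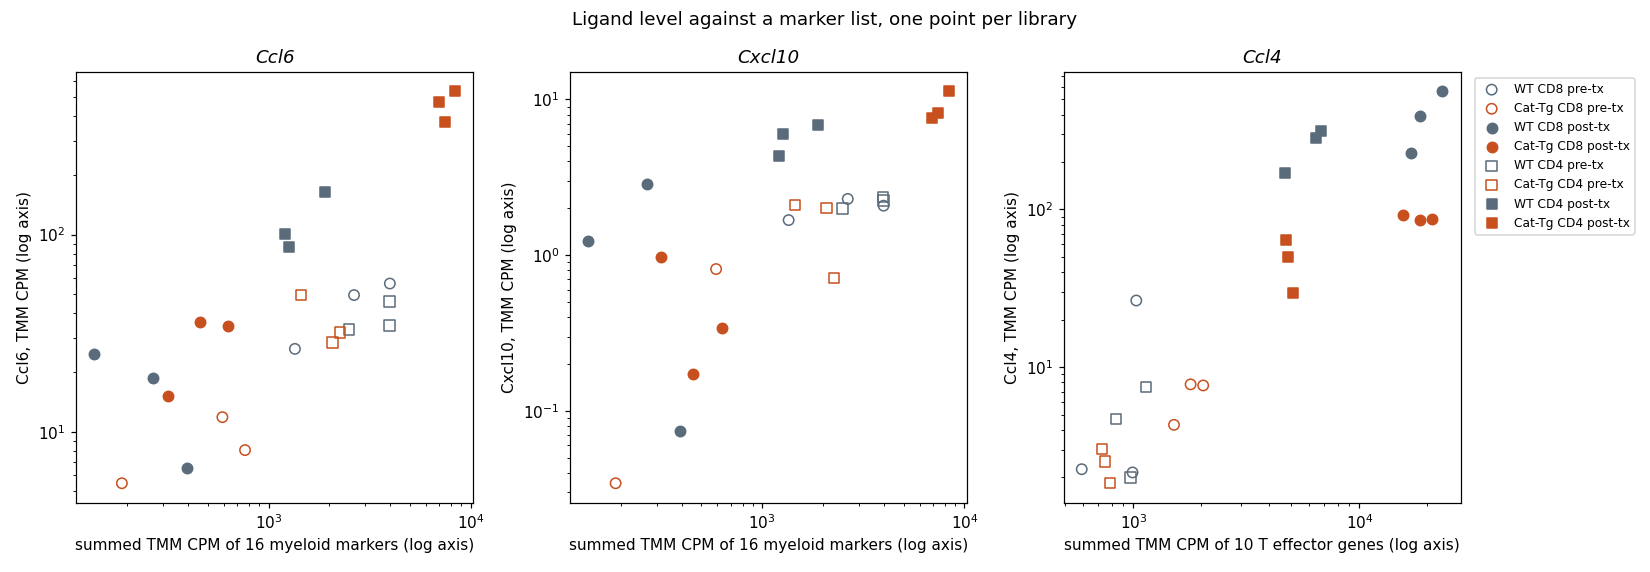
Each point is a library, with the summed CPM of a marker list on the x axis and the CPM of 1 ligand on the y axis, both log axes. Circles are CD8, squares CD4, open symbols pre-tx and filled symbols post-tx, coloured by genotype, and a library with the ligand at 0 is not drawn. The 3 Cat-Tg CD4 post-tx libraries lie at 6941 to 8367 CPM of myeloid markers and at 374 to 533 CPM of Ccl6.

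Of 7 receptor genes of these ligands, none was called between Cat-Tg and WT in CD8 post-tx (background 1.1% higher and 0.57% lower) and 1 higher in CD4 post-tx (background 3.62%), Ccr3 (log2 fold change 2.32, adjusted p = 0.0175), which binds Ccl5 and Ccl24 and is known from eosinophils. Against the libraries labelled WT pre-tx, none was called in CD8, and in CD4 2 were higher in Cat-Tg (background 12.3%) and 1 lower (background 5.91%). Cxcr3, the receptor of Cxcl9 and Cxcl10, stood at 619, 572 and 738 CPM in Cat-Tg CD8 post-tx and at 143, 1124 and 466 CPM in WT CD8 post-tx, which overlapped. From pre-tx to post-tx in Cat-Tg CD8, Cxcr3 rose (log2 fold change 2.85, adjusted p = 0.00282). In Cat-Tg CD4 cells the called receptors included Ccr1 (1.96, adjusted p = 0.0082) and Ccr3 (1.58, adjusted p = 0.031), both higher post-tx. Xcr1 was at most 10.7 CPM in any library.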

How the data were processed

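RNA from sorted splenic T cells was read with SMART-Seq HT and Nextera XT libraries. The authors deposited, per library, a kallisto 0.46.2 table of estimated counts and TPM per transcript (the submitters' notes also name mm9 and limma; the index release was not given in the sources used here). Transcripts were matched by identifier to GENCODE M21 (116374 of 117497, 99.57% to 99.75% of counts), and the deposited estimated counts were summed to gene symbols and rounded. TPM deposited by the authors was summed likewise and used only to compare genes.

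Genes over 1 CPM in at least 3 libraries were kept. The main test was edgeR 4.0.16 (TMM, quasi-likelihood, R 4.3.3) on the 12 libraries of a cell type (15960 genes in CD8, 17227 in CD4), or all 24 (19076 genes) between cell types and for the difference between them, with Benjamini-Hochberg adjustment over all genes. CPM is TMM-scaled, and log2 CPM for correlations used a prior count of 2. Alternatives were DESeq2 1.42.0, limma-voom 3.58.1, other scalings, filters and thresholds, TPM-scaled counts, a replicate block, fewer libraries in the fit, and leaving out each library. The script was tested on simulated data. The p-values rest on the spread between the 3 libraries within each group, pooled over all groups in the fit, those labelled WT pre-tx included. That estimate also borrows from other genes.

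The ligands and gene lists were chosen with earlier results of these data known. Named besides them were at most 4 members of a list, for ligands and receptors by highest mean CPM, and the 3 protein-coding genes most correlated with each ligand. Ccr1, Ccr3, Pf4 and Cxcl15 were named after their values were seen. Proteins were not analysed here, and results for some genes are not reported here. CD8 and CD4 cells were sorted from the same mice, but replicate numbers are not stated to mark the mouse, and same-numbered libraries did not deviate together. WT pre-tx CD8 and CD4 libraries were not compared with each other.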

Additional observations from a re-analysis of the deposited data

Results flagged for a closer look

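The genotype difference was not the same before and after transfer for 4 ligands, by the interaction term of edgeR's quasi-likelihood fit. In CD8 cells 2 of 10 ligands were called (background 10.7%) and in CD4 cells 4 of 10 (background 21.2%). Both counts were above the share of all genes, but with only 10 ligands nothing is read from the counts themselves. The difference, post-tx minus pre-tx in the log2 fold change of Cat-Tg against WT, was -5.01 for Xcl1 in CD8 (SE 0.91, adjusted p = 0.00302) and -6.52 in CD4 (SE 1.1, adjusted p = 0.000953). For Ccl6 it was 2.98 in CD8 (SE 0.83, adjusted p = 0.0312) and 1.87 in CD4 (SE 0.41, adjusted p = 0.00494). In CD4 it was -3.14 for Ccl1 (SE 0.85, adjusted p = 0.0173) and -1.63 for Ccl4 (SE 0.56, adjusted p = 0.0494), against a median of -0.55 over all genes in CD4. Leaving out 1 library ended the call for Ccl4 with 9 of 12 libraries (highest adjusted p over all alternatives 0.259), for Ccl1 with replicate 1 of Cat-Tg or WT CD4 pre-tx (0.138 over all alternatives), and for Ccl6 in CD8 with replicate 1 or 3 of Cat-Tg or WT pre-tx or Cat-Tg post-tx replicate 2 (0.0866). All 6 values rest on the libraries labelled WT pre-tx, which mixed Cd8a and Cd4 and carried B cell markers, and cannot be told apart from that. They also rest on the Cat-Tg pre-tx libraries, which held Ddx3y unlike all other groups, and cannot be told apart from that difference either. Within Cat-Tg, fitted without the libraries labelled WT pre-tx, Xcl1 was lower post-tx than pre-tx in CD8 (log2 fold change -2.01, SE 0.59, adjusted p = 0.0379) and CD4 (-3.07, SE 0.61, adjusted p = 0.00129), and the CD8 call was lost in 6 of 14 alternatives. That comparison set pre-tx libraries with Ddx3y against post-tx libraries with almost none.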

How the results depend on the processing

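Of 51 called values among 140 ligand values, 728 alternative values were computed: 640 kept the call, 88 lost it, and none changed direction. In CD4 post-tx the genotype calls of Ccl3, Ccl4, Ccl6 and Xcl1 held in all 14 alternatives each. DESeq2 size factors in edgeR moved the log2 fold changes of Ccl5 and Ccl6, on average of the 2, by -0.198 to 0.337 over the comparisons. In CD4 post-tx between genotypes that shift was 0.139. Other ligands could move further: Ccl4 in the CD4 difference went from -1.63 to -1.26 and lost its call. Sign changed for uncalled values only: Ccl5 in CD8 post-tx was 0.0328 with length-scaled TPM, 0.0185 with limma-voom, and -0.34 to 0.43 with 1 library left out; Ccl22 in CD8 post-tx ranged from -4.09 to 0.27 and Ccl9 in CD4 post-tx from -0.10 to 0.56. A further 57 sign changes fell among 905 alternative values of 59 uncalled results.

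Counts of ligands called moved as follows. In CD8 post-tx between genotypes (1) the count was 4 with DESeq2, 2 with its size factors, 4 with limma-voom, 3 with no filter, 3 without the libraries labelled WT pre-tx, 0 with only the compared libraries, and 0 to 2 with 1 library left out. DESeq2 and limma-voom there called Ccl3 (adjusted p = 0.000479 and 0.0249), Ccl4 (0.0239 and 0.0494) and Ccl1 (0.00819 and 0.0379). In CD4 post-tx (5) it was 6 with limma-voom and with length-scaled TPM, which added Ccl5, 4 with no filter, which lost Ccl1, 4 at a log2 threshold of 2, and 4 to 6 with 1 library left out. In CD4 pre-tx (3) it was 2 to 3, and Xcl1 lost its call in 10 of 13 alternatives. In CD8 pre-tx (2) it was 1 with limma-voom, 1 with the replicate block (Ccl6 lost, adjusted p = 0.0552), and 1 to 2 with 1 library left out. For the difference in CD4 (4) it was 2 at a log2 threshold of 2, 2 with limma-voom, 2 with no filter, and 2 to 4 with 1 library left out, and for that in CD8 (2) 1 to 3. In Cat-Tg CD8 post-tx against pre-tx (5) it was 3 at a log2 threshold of 2 and 3 to 5 with 1 library left out. Between CD8 and CD4 it was 3 to 5 in Cat-Tg post-tx (6), 1 to 3 in Cat-Tg pre-tx (2), and 2 to 4 in WT post-tx (4), where it was 2 with no filter. The causes were not tested. Same-numbered libraries had correlations of -0.252 to 0.198, so the numbers were not taken to pair the samples. The replicate block ended 3 calls of the 51 (Ccl6 in CD8 pre-tx, Ccl9 and Ccl1 between CD8 and CD4).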

Other observations

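Among 28 other chemokine ligand genes, Ccl24, an eosinophil-attracting ligand of Ccr3, had the highest mean level. It stood at 385, 696 and 700.2 CPM in Cat-Tg CD4 post-tx, at 79.3, 86.2 and 164 CPM in WT CD4 post-tx, and at 6.79 to 25.2 CPM in CD8 post-tx libraries. The genotype difference in CD4 post-tx was 2.41 on the log2 scale (SE 0.39, adjusted p = 0.00193, edgeR), and the log2 difference between CD8 and CD4 was -4.91 in Cat-Tg post-tx and -3.62 in WT post-tx. Of the 16 such genes tested in CD4, 2 were called higher in Cat-Tg post-tx, Ccl24 and Pf4, the platelet chemokine (4.06, adjusted p = 0.00574), and 1 lower, Cxcl15 (-3.70, adjusted p = 0.033). Of the 10 tested in CD8 post-tx none was called. The next most abundant, Ccl27a, Cxcl16 and Ccl25, had mean levels of 4.73, 4.41 and 2.89 CPM. Ccl24 rose from pre-tx to post-tx in Cat-Tg CD4 by 7.35 on the log2 scale (adjusted p = 2.02e-07). The myeloid markers were higher in the same libraries, and their part in the level of Ccl24 was not tested.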
